A study of Mus musculus with 2 samples.

Results

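The miR-34 and miR-449 family is a set of 6 mouse microRNA genes at 3 loci: Mir34a, the pair Mir34b and Mir34c, and the cluster Mir449a, Mir449b and Mir449c. They were picked by gene symbol, with Mir34b taken as ENSMUSG00000065492, from the 2202 microRNA genes counted in the deposited files. The files come from microRNA-seq of total RNA from male B6CASTF1/J mice, F1 animals from C57BL/6J and CAST/EiJ parents, aged 36 days, and from tissue labelled as a layer of hippocampus. There are 2 libraries of this 1 group, labelled biological replicates 2 and 1, and there is no treatment, mutant or other tissue. Their tissue samples have separate labels but the donor label is the same, and nothing states that they are separate animals. A p-value between them therefore concerns the difference between these 2 samples, which may be technical, and not a condition. The main test sets that difference against counting error only.

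MicroRNAs pair with messenger RNAs mainly through the seed, bases 2 to 8 of the mature strand, and so microRNAs with a common seed are grouped as a family. Mir34a and the Mir34b and Mir34c transcript are known as direct targets of the tumour suppressor p53, and miR-34a is known to repress cell cycle and survival genes. Mir449a, Mir449b and Mir449c lie in a host gene of multiciliated epithelium, and in mice the miR-34 and miR-449 genes act redundantly in the formation of motile cilia. In the brain such cilia belong to the ependyma and the choroid plexus rather than to hippocampal neurons. In bulk tissue, fewer cells of a type and less RNA per cell cannot be told apart.

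The mature strands show how alike and how separable the members are. RefSeq (GRCm38.p6) held 9 mature strands from 5 of the 6 genes; miR-34c-5p and Mir449b are named only. The 5p strands are written 5′ to 3′ with the seed in capitals.
miR-34a-5p: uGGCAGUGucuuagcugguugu
miR-34b-5p: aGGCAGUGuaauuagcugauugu
miR-449a-5p: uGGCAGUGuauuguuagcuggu
miR-449c-5p: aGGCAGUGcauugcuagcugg
These 4 strands carried the same seed, GGCAGUG, and no other mature strand among the 1738 in the RefSeq table had it. The label of a seed family therefore holds for the members with a 5p sequence. Outside the seed they diverged: miR-34a-5p and miR-34b-5p were 4 edits apart, as were miR-449a-5p and miR-449c-5p, while miR-34a-5p and miR-449a-5p were 6 edits apart (an edit is a base changed, added or removed).

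The 3p strands, from the other arm of each hairpin, are far less alike. They are shown with the same capitals, because the deposited counts are per gene and the arms cannot be separated in them.
miR-34a-3p: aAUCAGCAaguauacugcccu
miR-34b-3p: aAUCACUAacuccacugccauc
miR-34c-3p: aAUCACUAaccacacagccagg
miR-449a-3p: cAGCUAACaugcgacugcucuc
miR-449c-3p: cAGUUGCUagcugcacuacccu
Only miR-34b-3p and miR-34c-3p, from neighbouring hairpins, shared a 3p seed, AUCACUA, and they were 5 edits apart. The 3p strands of the other 3 genes each had a seed of their own, which no other mature strand in the table carried.

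The precursors of 1 gene per locus are printed with both mature strands in capitals, to show what a count of each gene can contain.
Mir34a: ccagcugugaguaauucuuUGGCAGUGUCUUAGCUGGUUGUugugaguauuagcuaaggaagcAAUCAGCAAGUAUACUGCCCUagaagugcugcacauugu
Mir34b: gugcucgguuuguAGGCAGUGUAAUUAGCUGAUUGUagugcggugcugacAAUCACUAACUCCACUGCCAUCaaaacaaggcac
Mir449a: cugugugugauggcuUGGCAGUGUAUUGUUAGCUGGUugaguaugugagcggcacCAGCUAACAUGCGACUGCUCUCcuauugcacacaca
Between the strands lay 22 bases in Mir34a, 14 in Mir34b and 18 in Mir449a. Over the 5 family hairpins in the RefSeq table, the longest stretch that any shared with another family hairpin was 11 bases, and the longest shared with one of the 1000 other hairpins in the same orientation was 14 bases, between Mir449a and Mir679. A full-length mature strand of 21 to 23 bases from these 5 genes therefore matched no second hairpin in that table. The rest of the genome was not searched for copies.

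On mm10 with GENCODE M21, Mir34a (ENSMUSG00000065493.1) lies on the plus strand of chromosome 4 from 150068454 to 150068555, where its last 17 bases overlap an exon of the unclassified transcript Gm37795 on the same strand. Mir34b (ENSMUSG00000065492.1) lies on the minus strand of chromosome 9 from 51103562 to 51103645. Mir34c (ENSMUSG00000065587.1) lies beyond a gap of 451 bases on the same strand, from 51103034 to 51103110. Both lie opposite an intron of Btg4, a gene of oocyte mRNA decay, and in no annotated gene of their own strand. Mir449c (ENSMUSG00000076146.1, 113035983 to 113036091), Mir449b (ENSMUSG00000078027.1, 113037419 to 113037498) and Mir449a (ENSMUSG00000065575.1, 113037534 to 113037624) follow each other on the plus strand of chromosome 13, all within an intron of Cdc20b, their host gene. Mir449b and Mir449a are 35 bases apart, and 1327 bases separate Mir449c and Mir449b.

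Own-strand counts over all microRNA genes summed to 5279877 in replicate 2 and 4404040 in replicate 1. Levels are in CPM, counts scaled to a library total of 1000000, with no division by gene length, and how evenly different strands were captured was not measured. The limit that a count of 0 allows, 3 counts, was 0.568 CPM in replicate 2 and 0.681 CPM in replicate 1. Intervals cover counting error only, since PCR copies of 1 molecule cannot be recognised without molecular identifiers. Reads that match several places, 46.5% of replicate 2 and 40.3% of replicate 1, are outside all counts. The tissue label was checked against marker lists. Neuronal genes were present in both libraries, with 15 of 19 at 10 or more counts in each, against 34.2% of genes with a Mir symbol. They were led by Mir132 at 20543 ± 4655 CPM (SD, n = 2). Those that fell short were Mir124a-1, Mir124a-2, Mir124a-3 and Mir9-2, with mean levels of 2.01, 0.208, 0 and 1.99 CPM. Whether reads that match several places account for these low counts was not tested. Muscle and liver genes summed to 136 and 129 CPM in replicates 2 and 1, led by Mir206, and 3 of those 7 genes were at 0 in both. The 2 that reached 10 counts in both were Mir206 and Mir122, with means of 103 and 28.9 CPM. Mir206 thus stood above the family gene Mir449a (71.6 CPM), and Mir122 above Mir34b (10.6 CPM).

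The family was present at a moderate level, carried by Mir34a and Mir34c in nearly equal amounts, with Mir449a well below them, Mir34b lower still, and Mir449b and Mir449c at the limit of detection. Of the 6 genes, 4 had 10 or more counts in both libraries, against 18.7% of all microRNA genes counted and 34.2% of those with a Mir symbol. The family summed to 848 CPM in replicate 2 and 1192 CPM in replicate 1, or 1020 ± 243 CPM (SD, n = 2), which was 0.0848% and 0.119% of the counts.

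**Figure D1:**
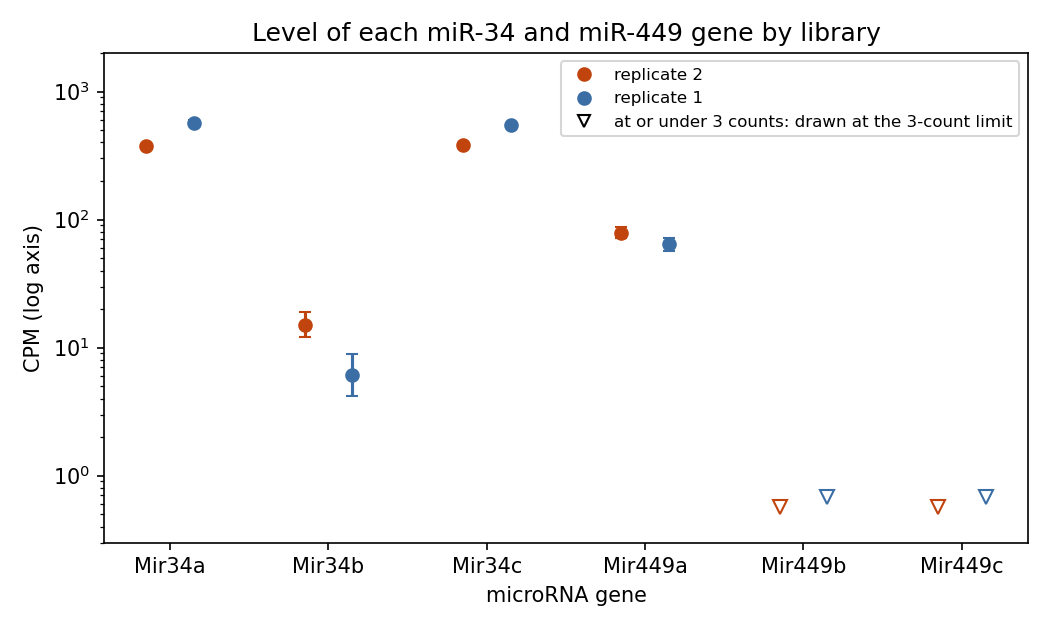
Level of each family gene in CPM (log axis) in replicate 2 (left point of each pair) and replicate 1 (right point), with 95% Wilson intervals for counting error. Mir34a and Mir34c lie between 373 and 572 CPM, Mir449a between 64.0 and 79.2 CPM and Mir34b between 6.13 and 15.2 CPM, while Mir449b and Mir449c, at or under 3 counts, are drawn as open triangles at the 3-count limit.

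Mir34a, the p53 target that stands alone at its locus, had 1971 counts in replicate 2 and 2518 in replicate 1. This was 373 CPM (95% Wilson interval 357 to 390) in replicate 2 and 572 CPM (550 to 595) in replicate 1. It ranked 131 of 2202 by mean, at 473 ± 140 CPM (SD, n = 2).

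Mir34c, the downstream gene of the chromosome 9 pair, stood close to Mir34a. It had 2005 counts in replicate 2 and 2421 in replicate 1, or 380 CPM (363 to 397) and 550 CPM (528 to 572), and ranked 133 at 465 ± 120 CPM. Mir34a over Mir34c was 0.983 in replicate 2 (95% exact binomial interval 0.923 to 1.05) and 1.04 in replicate 1 (0.983 to 1.10), so no difference between these 2 genes was detectable beyond counting error in either library.

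Mir449a, the family gene of multiciliated epithelium, was present in both libraries. It had 418 counts in replicate 2 and 282 in replicate 1, or 79.2 CPM (71.9 to 87.1) and 64.0 CPM (57.0 to 72.0), and ranked 216 at 71.6 ± 10.7 CPM. Mir34c over Mir449a was 4.80 in replicate 2 (95% exact binomial interval 4.31 to 5.34), against 8.59 in replicate 1 (7.59 to 9.75).

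Its cluster mates were not detectable at this depth. Mir449b had 0 counts in both libraries, and Mir449c had 2 counts in replicate 2 and 0 in replicate 1. Mir449a was at least 139-fold higher than Mir449b in replicate 2 and at least 94.0-fold higher in replicate 1, each against a floor of 3 counts in that library. Its ratio to the 2 counts of Mir449c in replicate 2 was 209 (exact binomial interval 57.5 to 1731), and it was at least 94.0-fold higher than Mir449c in replicate 1. Nearly all counts of the cluster were thus counts of Mir449a, the gene farthest downstream of the 3.

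Mir34b, next to Mir34c, stayed far below it. It had 80 counts in replicate 2 and 27 in replicate 1, or 15.2 CPM (12.2 to 18.9) and 6.13 CPM (4.21 to 8.92), and ranked 312 at 10.6 ± 6.38 CPM. Mir449a over Mir34b was 5.23 in replicate 2 (95% exact binomial interval 4.10 to 6.72), against 10.4 in replicate 1 (7.03 to 16.1). The order Mir34a with Mir34c, then Mir449a, then Mir34b, held in both libraries. No test across samples was made of this order, because a two-sided exact sign-flip test over 2 libraries cannot give a p below 0.5.

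The family's counts were split differently in the 2 libraries, with a larger share for Mir449a and Mir34b in replicate 2. Mir34a made up 44.0% (95% Wilson interval 42.6 to 45.5) of the family's 4476 counts in replicate 2 and 48.0% (46.6 to 49.3) of 5248 in replicate 1. Mir34c made up 44.8% (43.3 to 46.3) and 46.1% (44.8 to 47.5). The share of Mir449a was 9.34% (8.52 to 10.2) in replicate 2 and 5.37% (4.80 to 6.02) in replicate 1, and that of Mir34b was 1.79% (1.44 to 2.22) and 0.514% (0.354 to 0.748).

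**Figure D2:**
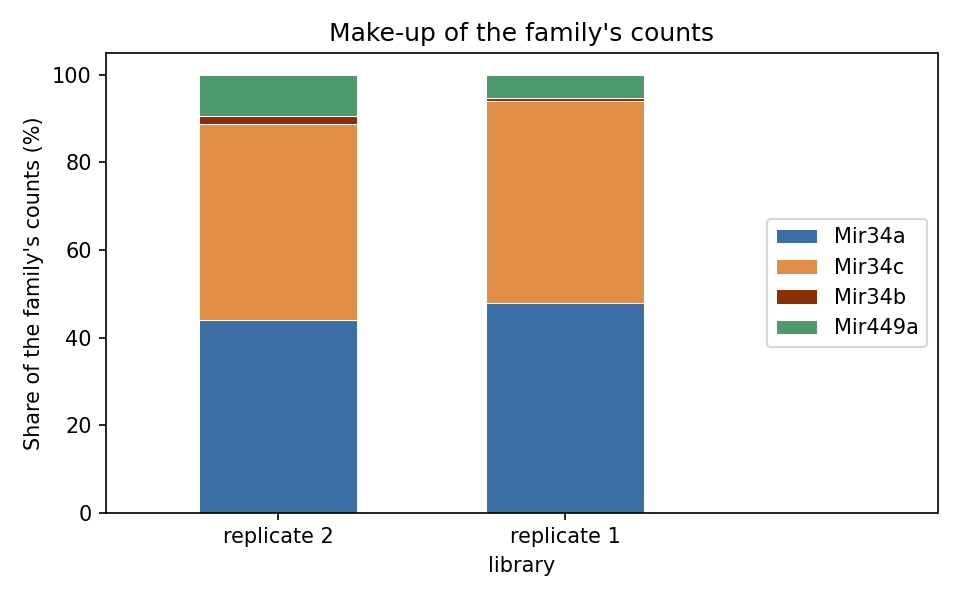
Share of the family's counts (%) held by each gene in replicate 2 (left bar) and replicate 1 (right bar). Mir34a and Mir34c together fill most of both bars, and Mir449a takes 9.34% in replicate 2 against 5.37% in replicate 1. Mir449b and Mir449c are too low to be drawn.

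The members of the family moved in opposite directions between the libraries: Mir34a and Mir34c were lower in replicate 2, and Mir34b and Mir449a were higher. Of the 6 genes, 4 passed the filter of 10 counts in total, and all 4 passed at an adjusted p of 0.05 (two-sided exact conditional binomial test, Benjamini-Hochberg over 504 genes). In that test 55.8% of all genes passed: 32.5% were higher in replicate 2 and 23.2% were lower. Among genes that reach 100 counts over both libraries, as all 4 members do, 81.2% passed, so 4 calls of 4 are near the background. The split moved with the minimum: at 100 counts, 122 genes were higher and 130 lower, in place of 164 and 117. Log2 ratios set replicate 2 over replicate 1 on TMM-scaled CPM with 1 CPM added, which understates the ratio of low genes.

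Mir34a fell by 0.63 on the log2 scale in replicate 2 (adjusted p = 8.21e-48, exact binomial test). Mir34c fell by 0.55 (adjusted p = 3.46e-36, exact binomial test). The 2 genes, from different chromosomes, kept their ratio near 1 in both libraries.

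Mir34b was 2.24-fold higher in replicate 2, a log2 ratio of 1.16 (adjusted p = 5.99e-05, exact binomial test). Mir449a was 1.22-fold higher, a log2 ratio of 0.28 (adjusted p = 0.0189, exact binomial test). Against the differences of other genes these were ordinary: 13.3% of the 504 tested genes had a larger absolute log2 ratio than Mir34b, 33.3% than Mir34a, 40.5% than Mir34c and 67.9% than Mir449a. The median log2 ratio was -0.13 over the 4 members and 0.05 over all genes tested.

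The test covers counting error only, and how many of the 4 calls hold depends on the spread allowed for. A beta-binomial form of the test allows for spread beyond counting. At a coefficient of variation of 0.1, Mir34a, Mir34b and Mir34c kept their calls and 30.2% of all genes differed. At 0.3, its adjusted p (exact test) was 0.542 for Mir34b, 0.915 for Mir34a, 0.944 for Mir34c and 0.982 for Mir449a, and 2.78% of all genes differed. edgeR estimated this coefficient at 0.426, where 0.595% of genes differed, but that estimate comes from the same differences between these 2 libraries, so few genes could pass by construction and nothing is read from it. The call of Mir449a was also lost with DESeq2 size factors (adjusted p = 0.0592, exact binomial test), with a minimum of 100 counts (0.194) and with a coefficient of variation of 0.1 (0.393).

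**Figure D3:**
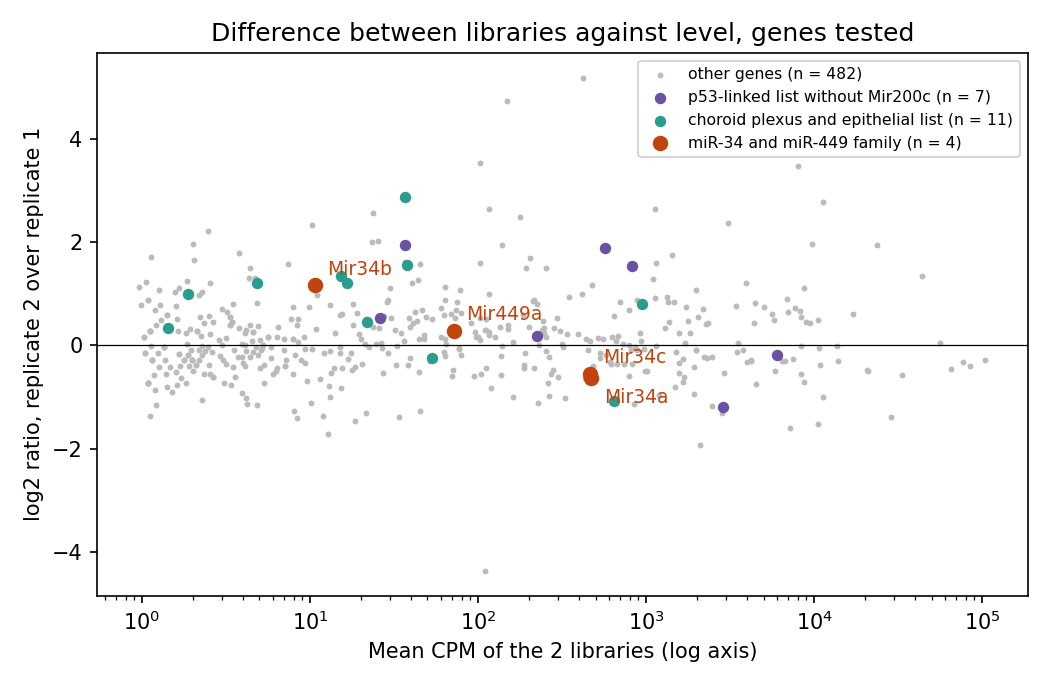
Log2 ratio of replicate 2 over replicate 1 against the mean CPM of both libraries (log axis), 1 point per gene tested. The 4 family genes lie inside the cloud of other genes, Mir34b at 1.16 and Mir34a and Mir34c side by side at -0.63 and -0.55; Mir200c, which is in both lists, is drawn with the choroid plexus and epithelial list.

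The chromosome 9 pair changed its proportion between the libraries. Mir34c had 25.1 times the counts of Mir34b in replicate 2 (95% exact binomial interval 20.0 to 31.7) and 89.7 times in replicate 1 (61.5 to 136), intervals that do not overlap. The ratio thus differed by 3.58-fold between the libraries. To place this, all pairs of adjacent microRNA genes on 1 strand, at most 1000 bases apart and each with 10 or more counts in both libraries, were described in the same way. Among these 64 pairs the Mir34c and Mir34b ratio ranked 10 in size, where the median pair had a ratio of 7.18 in replicate 2 and 7.45 in replicate 1. It ranked 6 in how far the ratio moved, where the median pair moved by 1.76-fold, 25 pairs moved by more than 2-fold and the most by 9.63-fold. Some of these pairs share a gene, so they are not independent.

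**Figure D4:**
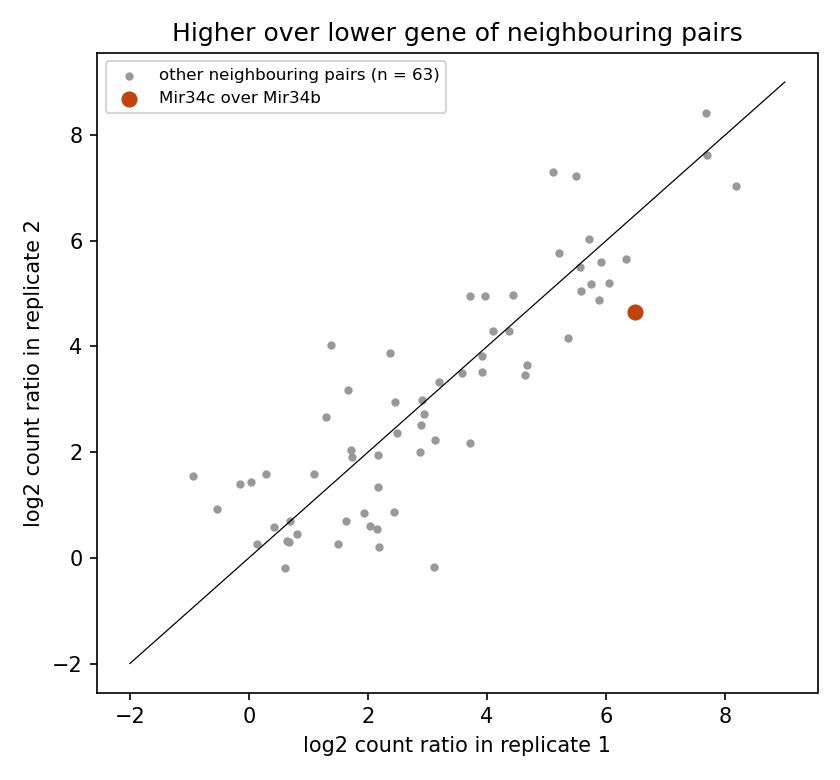
Log2 count ratio of the higher over the lower gene of 64 neighbouring microRNA pairs, in replicate 2 (vertical) against replicate 1 (horizontal), with the line of equal ratios. Mir34c over Mir34b lies below the line, at a ratio of 25.1 in replicate 2 against 89.7 in replicate 1.

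Mir34b also carried reads on the strand opposite to its own, 5 in replicate 2 and 5 in replicate 1, while the other 5 family genes had 0 there in both. These reads were 5.88% and 15.6% of the counts on either strand of Mir34b. With them included, the geometric mean of the Mir34c over Mir34b ratio was 42.2 in place of 47.4.

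MicroRNAs of choroid plexus and other epithelia, a list not confined to multiciliated cells, had a median log2 ratio of 1.00, against 0.05 over all genes tested. That median is the value of Mir205, which had 15 counts in replicate 2 and 4 in replicate 1 and did not pass. Of the 13 genes listed, 11 were tested. In the exact binomial test 7 were higher in replicate 2, 1 was lower and 3 did not pass. In that test 32.5% of all genes were higher and 23.2% lower. The tested genes of the list, apart from Mir200a, Mir205 and Mir211, reach 100 counts over both libraries. Among all genes that do, 81.2% passed in either direction. At a coefficient of variation of 0.1, 6 genes of the list were higher and 1 was lower, where 30.2% of all genes differed. At 0.3, 1 gene of the list, Mir200b, was higher and 0 were lower, where 2.78% of all genes differed. Mir204, a microRNA abundant in choroid plexus, was counted 6365 times in replicate 2, against 3007 times in replicate 1, which gave a log2 ratio of 0.80. Of the miR-200 family of epithelial identity, Mir200b, Mir429 and Mir200a were higher, with log2 ratios of 2.87, 1.55 and 1.21. Mir200c was higher at 0.44 (adjusted p = 0.0429, exact binomial test), but not with DESeq2 size factors (0.0793). The sensory epithelium genes Mir182 and Mir183 stood at 1.34 and 1.21. Mir200b had the largest ratio of the list, with 345 counts in replicate 2 and 35 in replicate 1.

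Mir31 ran the other way, with a log2 ratio of -1.07. Mir203, Mir205 and Mir211 did not pass, with log2 ratios of -0.25, 1.00 and 0.33. With DESeq2 size factors 6 genes of the list were higher and 2 lower, Mir203 being the second. In that setting 149 of all 504 genes were higher and 125 lower. Mir96 and Mir141 had too few counts to test. The list summed to 1880 CPM in replicate 2 and 1678 CPM in replicate 1, and its defining choroid plexus member Mir204 was far above 0 in both. Mir34b and Mir449a were higher in the same library as these genes, and Mir34a and Mir34c were lower in it. The neuronal and leukocyte lists leaned the same way, beside 32.5% of all genes higher and 23.2% lower in the exact binomial test. Of 17 neuronal genes tested, 12 were higher and 2 lower, with a median log2 ratio of 0.44. Of 5 leukocyte genes, 4 were higher and 1 lower, with a median of 0.61. The 3 oligodendrocyte genes gave 1 higher and 1 lower, with a median of 0.05. The part of choroid plexus or epithelium in the family's ratios was not tested.

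Other microRNAs linked to p53 differed between the libraries in both directions. The list summed to 9919 CPM in replicate 2 and 11218 CPM in replicate 1. Of the 11 listed, 8 were tested, of which 6 were higher and 2 lower in replicate 2 in the exact binomial test, with a median log2 ratio of 0.49. That all 8 passed is near the background, since 55.8% of all genes and 81.2% of those reaching 100 counts did. With DESeq2 size factors 4 were higher and 2 lower, where 149 of all 504 genes were higher and 125 lower. At a coefficient of variation of 0.1, 3 were higher and 1 lower, where 30.2% of all genes differed. At 0.3 none passed, where 2.78% of all genes differed. Mir15a and Mir16-1, a pair of cell cycle repressors in 1 cluster, had log2 ratios of 1.54 and 1.89. Mir192 and Mir194-2, neighbours that p53 is known to induce, had 1.94 and 0.53. Mir192 had 312 counts in replicate 2 and 64 in replicate 1.

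The genes of this list that were lower in replicate 2, as Mir34a and Mir34c were, were Mir107 at -1.19 and the vessel wall gene Mir143 at -0.17. Mir107 had 9338 counts in replicate 2 and 17553 in replicate 1. At a coefficient of variation of 0.1 Mir107 kept its call, while Mir143 did not (adjusted p = 0.575, beta-binomial test). Mir145a, transcribed with Mir143, had 0.18. Mir141, Mir194-1 and Mir215 had too few counts to test. The vessel wall list summed to 43835 CPM in replicate 2 and 16250 CPM in replicate 1, led by the endothelial gene Mir126a which was counted 200301 times in replicate 2 and 42849 times in replicate 1. The part of vessel cells in the family's ratios was not tested.

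**Figure D5:**
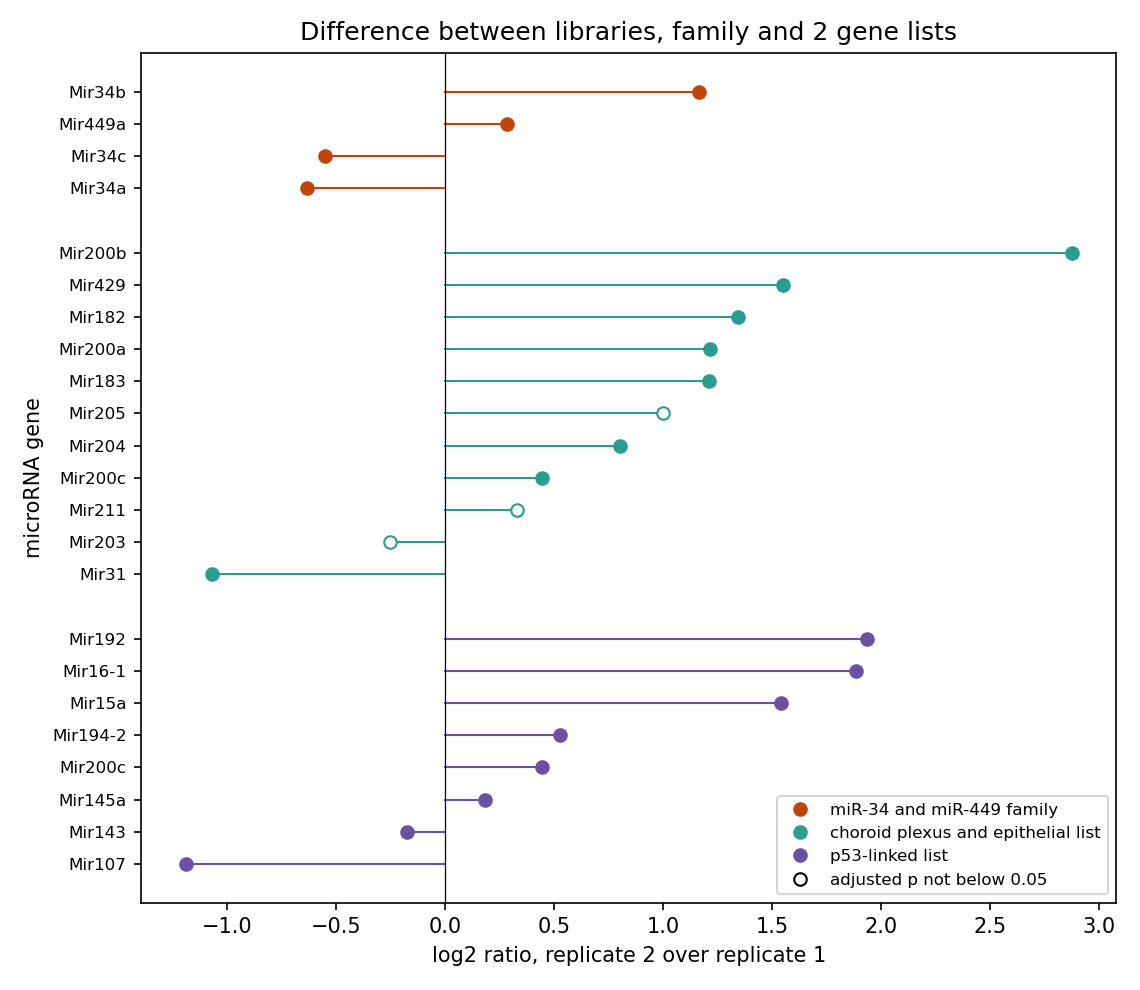
Log2 ratio of replicate 2 over replicate 1 for the tested genes of the family, the choroid plexus and epithelial list and the p53-linked list, with open points where the adjusted p was not below 0.05. In each group some genes lie on either side of 0, with the epithelial list mostly to the right.

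Lists of other sources were checked beside these. Of 11 genes of an X-linked cluster enriched in testis, a tissue rich in miR-34 and miR-449, 8 were at 0 in both libraries and none reached 10 counts in both, with a sum of 2.27 CPM in replicate 2 and 4.54 CPM in replicate 1. Its highest gene, Mir741, had 9 counts in replicate 2 and 11 in replicate 1. Over all 2202 genes, 723 had any count in replicate 2 and 687 in replicate 1, and 18.7% reached 10 counts in both. Zeros are thus common in any list. The microglia and leukocyte list, led by Mir342, summed to 5175 CPM in replicate 2 and 3235 CPM in replicate 1. The oligodendrocyte list, led by Mir219a-2, summed to 5662 CPM in replicate 2 and 5819 CPM in replicate 1.

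The genes closest in level to each member were found by the distance of their log2(CPM + 1) over the 2 libraries, outside the family and among genes with a Mir symbol. Mir34a and Mir34c had the same 3 nearest genes, Mir672, Mir134 and Mirlet7c-1, at distances of 0.07 to 0.18. Mir672 had 397 CPM in replicate 2 and 541 CPM in replicate 1, and the neuronal gene Mir134 had 342 and 524 CPM. Mirlet7c-1 belongs to a family with near-identical copies, so its count is uncertain.

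The nearest to Mir449a were Mir6944 at 0.17, the leukocyte gene Mir142 at 0.26 and the hypoxia-induced Mir210 at 0.26. The nearest to Mir34b were Mir9-1 at 0.17, Mir7019 at 0.29 and Mir547 at 0.53. Mir9-1 had 15.0 CPM in replicate 2 and 7.04 CPM in replicate 1, close to Mir34b in both, but it has near-identical copies and its count is uncertain. With 2 libraries of 1 group such likeness describes levels and not a shared pattern across conditions.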

How the data were processed

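The deposited files hold raw counts per microRNA gene, with reads mapped to mm10 and counted against GENCODE M21, per the notes deposited with them; the aligner is not given in the sources used here. No header names the columns, so the strand of each count column was read from the values. Counts on the gene's own strand were used, and lines that name no gene (65.4% of reads in replicate 2, 64.7% in replicate 1) were left out. All 2202 identifiers matched GENCODE M21.

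The libraries were compared by a two-sided exact conditional binomial test (scipy 1.17.1) with TMM sizes (edgeR 4.0.16, R 4.3.3; factors 1.01 and 0.994 in replicates 2 and 1), for 504 genes of at least 10 summed counts, Benjamini-Hochberg at 0.05. edgeR's quasi-likelihood test needs a second group. The test was also run on simulated counts drawn with the spread that it assumes. That does not check it against the spread between these libraries. Alternatives were DESeq2 1.42.0 size factors, total counts, other minimums and pseudocounts, either-strand counts and a beta-binomial form; the last was applied with edgeR's estimate of 0.426, and to the lists, after seeing the data.

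The members and the 8 lists were chosen with earlier results of these data known. Named are all 6 members, the detected genes of the p53-linked and epithelial lists, the highest gene of other lists and the 3 nearest in level. The remaining genes of those 2 lists, the neuronal genes that fell short, Mir122 and Mir679 are named for completeness. The neighbouring pairs were added after seeing the data. The effect of CAST/EiJ variants on mapping was not tested.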

Additional observations from a re-analysis of the deposited data

Results flagged for a closer look

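Mir34b had 5 counts on the strand opposite to its own in replicate 2 and 5 in replicate 1, above the 3 counts that a count of 0 allows, in a column outside the main measurement. Of the 411 genes with 10 or more own-strand counts in both libraries, 372 had 0 opposite-strand counts in both. Over all 2202 genes, 37 had more than 3 in both libraries, and 8 of those, Mir34b among them, overlap no annotated microRNA gene on the other strand.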

How the results depend on the processing

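The directions of the 4 members' log2 ratios held under all alternatives run, from -0.76 to -0.58 for Mir34a, 0.85 to 1.22 for Mir34b, -0.68 to -0.49 for Mir34c and 0.15 to 0.34 for Mir449a. Some alternatives could not change a direction. The coefficient of variation enters the p-value only, and CPM added to both libraries cannot reverse a sign. With a coefficient of variation of 0.3 all 4 calls were lost at unchanged ratios (-0.63, 1.16, -0.55 and 0.28; adjusted p of 0.542 to 0.982), and with edgeR's 0.426 the adjusted p was 1 for all 4, a loss built into that setting because the 0.426 comes from the same differences. Mir449a also lost its call with DESeq2 size factors (0.23), a minimum of 100 counts (0.15) and a coefficient of variation of 0.1 (0.28). Over all genes, 98 were higher and 54 lower at 0.1, 13 and 1 at 0.3, and 2 and 1 at 0.426. With DESeq2 size factors 1 member was called higher and 2 lower, 4 p53-linked genes higher and 2 lower, and 6 epithelial genes higher and 2 lower. In that setting 149 of all 504 genes were higher and 125 lower. Of the p53-linked genes, 3 were higher and 1 lower at a coefficient of variation of 0.1, and 0 and 0 at 0.3. Of the epithelial genes, 6 were higher and 1 lower at 0.1, and 1 and 0 at 0.3. With 100 or more counts in both libraries 5 of the 11 p53-linked and 3 of the 13 epithelial genes were detected. The share of all genes at that minimum was not computed. Scaled to all reads in place of gene counts, levels were 166 for Mir34a, 3.71 for Mir34b, 163 for Mir34c and 25.0 for Mir449a, as the larger denominator requires. Leaving out each library gave 373 to 572 CPM for Mir34a, 6.13 to 15.2 for Mir34b, 380 to 550 for Mir34c, 64.0 to 79.2 for Mir449a, and 25.1 to 89.7 for the Mir34c over Mir34b ratio, which thus rests on which library is used; a single library allows no test between libraries. No paired analysis was possible because there is 1 group. Depth limits Mir449b and Mir449c, both at or under 3 counts.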
